A study of Mus musculus with 8 samples.

Results

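Adult neurogenesis genes were examined in mouse hippocampus. They are 9 genes named for the neural stem cell (Nes), the dividing progenitor (Mki67), the committed intermediate progenitor (Eomes) and the immature granule neuron (Neurod1, Sox4, Sox11, Igfbpl1, Draxin, Dcx). The members were taken by gene symbol, and all 9 were found once each among 55188 genes. RNA-seq libraries came from whole hippocampus of C57BL/6 mice before fear conditioning, from animals labelled KO for Pyk2, the non-receptor kinase that Ptk2b encodes, and from wild-type (WT) animals. There were 8 libraries in all: 2 numbered KO animals and 2 numbered WT animals with 2 technical replicates each. The labels describe the mice of both genotypes as transgenic, give no age or sex, and do not state how the knockout was made or that each number is a separate mouse. The p-values below therefore measure the spread between these numbered units, called animals here (n = 2 each).

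New granule neurons are made throughout life in the subgranular zone of the dentate gyrus, a sub-region of the hippocampus. Radial glia-like stem cells that contain the intermediate filament nestin give rise to dividing Eomes-positive progenitors. These become doublecortin-positive neuroblasts, which then mature into granule neurons and join the circuits used in contextual memory. The cells of these stages are a small share of the tissue, so their transcripts are diluted in a whole-hippocampus library. In bulk RNA, fewer cells of a type and less RNA per cell cannot be told apart.

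Promoters are shown for the members in which the animals of the groups did not overlap (Neurod1, Dcx and Nes), to set their start-site sequences side by side. Each runs 5′ to 3′ on the gene's strand, from 250 bases before to 50 bases after a RefSeq start site in GRCm38.p6. Capitals mark matches on either strand to the TATA motif TATAAA, the GC box GGGCGG and the E-box CANNTG, the letters that basic helix-loop-helix factors such as Neurod1 recognise; no match overlapped another motif.
Neurod1: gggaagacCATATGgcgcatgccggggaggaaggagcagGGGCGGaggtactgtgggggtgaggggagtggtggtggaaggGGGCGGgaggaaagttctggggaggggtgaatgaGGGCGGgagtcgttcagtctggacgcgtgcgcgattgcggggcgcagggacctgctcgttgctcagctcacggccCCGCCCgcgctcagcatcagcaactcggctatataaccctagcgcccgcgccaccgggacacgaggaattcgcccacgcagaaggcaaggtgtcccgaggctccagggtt
Dcx: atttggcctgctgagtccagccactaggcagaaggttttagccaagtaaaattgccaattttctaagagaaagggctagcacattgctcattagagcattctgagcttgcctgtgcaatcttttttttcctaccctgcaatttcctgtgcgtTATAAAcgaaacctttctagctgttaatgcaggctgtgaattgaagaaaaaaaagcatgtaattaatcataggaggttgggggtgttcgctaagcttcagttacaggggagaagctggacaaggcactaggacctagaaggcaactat
Nes: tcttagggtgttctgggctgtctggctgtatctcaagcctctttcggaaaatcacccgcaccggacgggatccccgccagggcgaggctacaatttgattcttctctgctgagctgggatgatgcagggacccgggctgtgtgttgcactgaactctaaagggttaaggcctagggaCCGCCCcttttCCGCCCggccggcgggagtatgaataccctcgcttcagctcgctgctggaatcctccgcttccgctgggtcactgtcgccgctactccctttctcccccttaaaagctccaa
These windows lie at chr2:79456587-79456886 (minus strand), chrX:143933170-143933469 (minus strand) and chr3:87970843-87971142 (plus strand). The Neurod1 window held 66.7% G and C, 4 GC boxes and 1 E-box. The Dcx window held 43% G and C, 1 TATA motif, 0 GC boxes and 0 E-boxes, and Dcx has another start site nearby that is not shown. The Nes window held 58.7% G and C, 2 GC boxes and 0 E-boxes. Among 32851 windows of this length, 72.3% held an E-box, 35.7% a GC box and 13.6% a TATA motif, and the median G and C content was 52.7%. Windows were found for 8 of the 9 members, all but Igfbpl1. Their G and C content ran from 43% in Dcx to 78% in Draxin. A match is a description of letters and not a bound site.

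The label check and the state of the tissue bear on every comparison below. Ptk2b stood at 277, 279, 264 and 274 FPKM (a fragment tally corrected for gene length and for the size of each library) in the libraries labelled KO, against 232, 232, 203 and 202 FPKM in the WT libraries. The targeted transcript was thus not lower in the libraries labelled KO (adjusted p = 0.158), so every direction is given as labelled. A value summed over the gene does not show the loss of an exon or of the protein. The 13 choroid plexus markers, which mark the epithelium of the ventricles beside the hippocampus, summed to 291 and 1246 FPKM in the KO animals against 4267 and 7534 FPKM in the WT animals. Mature dentate granule cell markers, among them the transcription factor gene Prox1 and the calcium buffer gene Calb1, summed to 237 and 259 FPKM in the KO animals and 258 and 231 FPKM in the WT animals. The groups therefore overlapped in dentate content and did not overlap in choroid plexus content (13 of 13 markers lower in KO, 0 past the threshold in the main fit). Under alternatives that kept all animals, 11 of these markers passed with the animal number as a block, where 184 of 16667 genes passed. With the second technical libraries 1 marker passed, where 35 of 16642 genes did. The part of choroid plexus in the members' values was not tested.

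Per length, the members covered a wide span of levels. Over the 4 animals Neurod1 had the highest mean level at 7.87 ± 0.866 FPKM, followed by Sox4 at 4.48 ± 0.326, Igfbpl1 at 3.61 ± 1.07, Dcx at 2.68 ± 0.0566, Sox11 at 2.07 ± 0.112, Nes at 1.498 ± 0.195, Eomes at 1.00 ± 0.120, Draxin at 0.332 ± 0.04998 and Mki67 at 0.318 ± 0.0475 FPKM (SD, n = 4). The animals of Sox4 and Igfbpl1 overlapped, as did those of Igfbpl1 and Dcx and those of Draxin and Mki67, so the order within these neighbours does not exceed the spread. The other neighbours in this order did not overlap. Draxin and Mki67 lay below the minimum of 0.5 FPKM in 2 animals, so 7 of the 9 members entered the test.

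No member passed the test between the groups. In limma, 0 of the 7 tested members had a Benjamini-Hochberg adjusted p under 0.05 (adjusted p = 0.395 to 0.875), and 0 had an unadjusted p under 0.05. Of all 16667 genes tested, 9 passed (0.0540%), all lower in the KO animals (0.0540% lower and 0% higher), and 15.5% had an unadjusted p under 0.05. Both KO animals lay above both WT animals in 2 of the 7 tested members (Neurod1 and Dcx), where 18.4% of all tested genes did so. Both KO animals lay below both WT animals in 1 member (Nes), where 30.7% of all genes did so. The KO mean was higher for 4 of the 7, against 42.0% of all genes, and the median log2 fold change of the 7 was 0.03, against -0.02 for all genes. At the level of single libraries the groups overlapped in all 9 members. With 2 against 2 animals the smallest exact two-sided permutation p is 0.333, which Neurod1, Dcx and Nes reached.

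**Figure D1:**
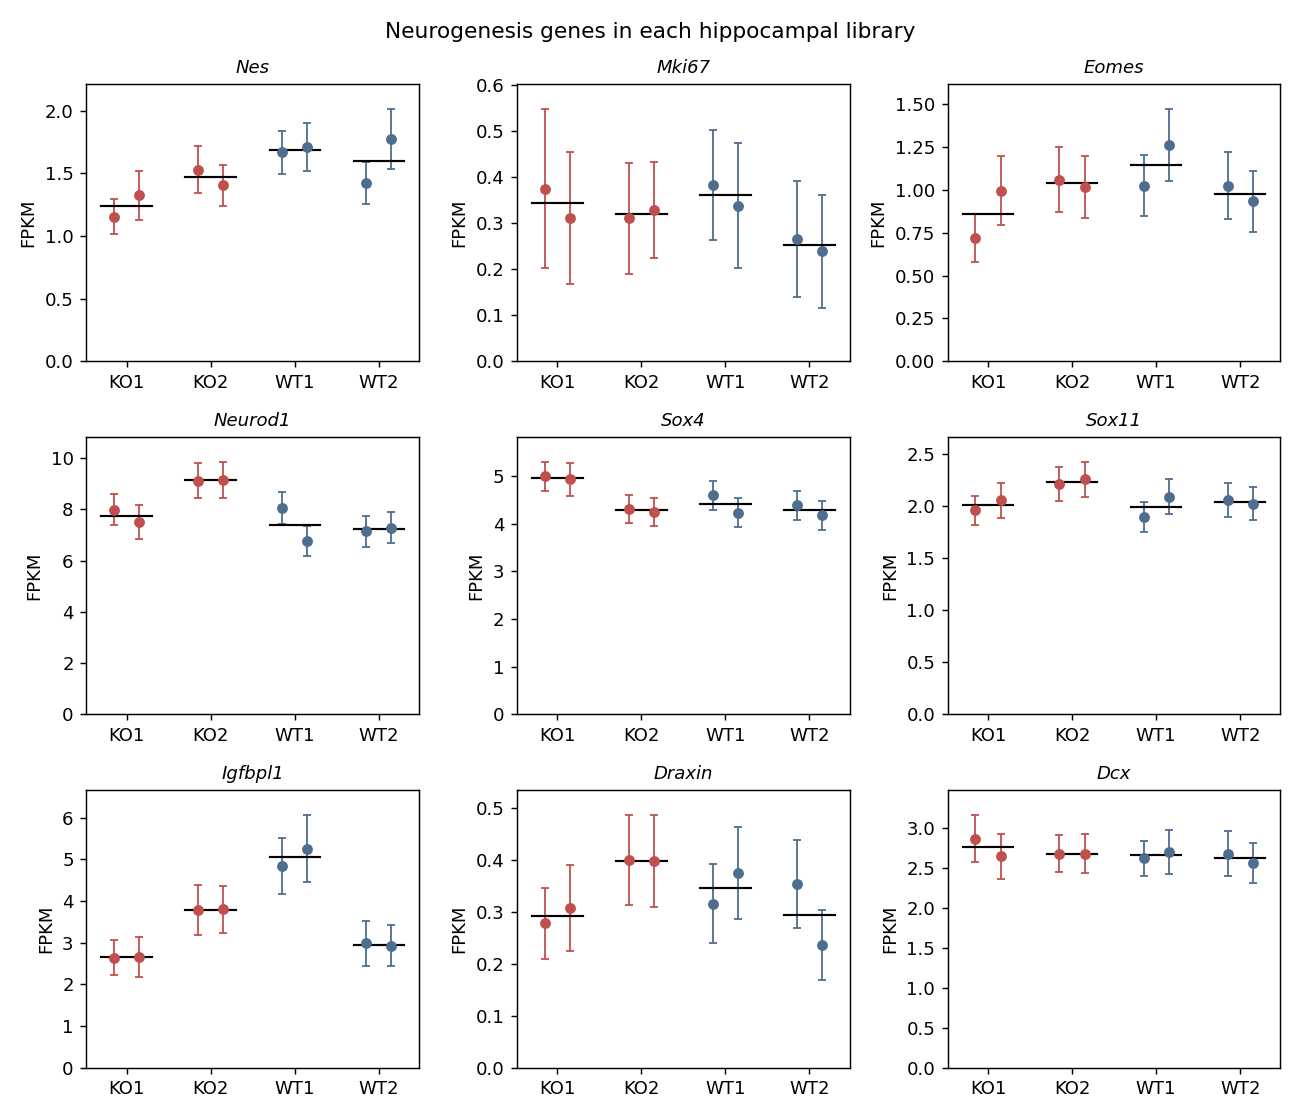
FPKM of the 9 members in each of the 8 libraries, KO animals (red) left of WT animals (blue), 2 technical libraries per animal, on linear axes that start at 0. Points are the deposited values with their deposited lower and upper confidence limits, and black bars are the mean of each animal. Igfbpl1 spreads widely between animals of the same group (2.65 and 3.79 FPKM in KO, 5.05 and 2.95 FPKM in WT), while Dcx stays between 2.63 and 2.76 FPKM in all 4 animals.

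The stem cell member was Nes (ENSMUSG00000004891, chromosome 3, 87971078 to 87980451 in mm10, plus strand), which encodes nestin, an intermediate filament of neural stem cells that dividing endothelial cells and pericytes also make. It stood at 1.16 and 1.32 FPKM in the libraries of KO1 and 1.53 and 1.40 FPKM in those of KO2, against 1.67 and 1.71 FPKM in those of WT1 and 1.42 and 1.77 FPKM in those of WT2. Both KO animals were below both WT animals, although single libraries of KO2 and WT2 crossed. The group means were 1.35 ± 0.160 FPKM in KO and 1.64 ± 0.0640 FPKM in WT (SD, n = 2 each), 17.6% lower in KO. The log2 fold change was -0.17 (standard error, SE, 0.09; 95% interval -0.39 to 0.06; limma adjusted p = 0.423). It was -0.059 after quantile normalization, and -0.24 to -0.099 with 1 animal left out. Of 14 endothelial and pericyte markers, 11 had lower means in KO, as did 9674 of all 16667 tested genes. Their median was -0.06 on the log2 scale, and 0 passed the threshold. Both KO animals lay below both WT animals in 5 of the 14, against 30.7% of all tested genes, and 9 overlapped. Their summed levels were 72.1 and 76.9 FPKM in KO and 77.5 and 86.1 FPKM in WT. The most abundant of them, Vtn, was at 19.4 and 18.6 FPKM in KO against 21.5 and 25.2 FPKM in WT. The part of these cells in the Nes value was not tested.

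Mki67 (ENSMUSG00000031004, chromosome 7, 135689784 to 135716361, minus strand), which encodes the Ki-67 protein of cycling cells, was the least abundant member. Its libraries gave 0.374 and 0.311 FPKM in KO1 and 0.310 and 0.328 FPKM in KO2, against 0.383 and 0.338 FPKM in WT1 and 0.265 and 0.239 FPKM in WT2. The KO animals lay between the WT animals. Group means were 0.331 ± 0.0165 FPKM in KO and 0.306 ± 0.0767 FPKM in WT (SD, n = 2 each). The deposited confidence limits reached 31.1% to 51.4% of the value on either side, so differences smaller than that lie within the limits of a single library. Fitted with no minimum level, the log2 fold change was 0.03 (95% interval -0.14 to 0.19, limma adjusted p = 0.875); the added 1 FPKM compresses fold changes at this level.

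Eomes (ENSMUSG00000032446, chromosome 9, 118478212 to 118486132, plus strand) encodes the T-box factor Tbr2 that marks intermediate progenitors. It stood at 0.719 and 0.995 FPKM in KO1 and 1.06 and 1.01 FPKM in KO2, against 1.02 and 1.26 FPKM in WT1 and 1.02 and 0.932 FPKM in WT2. The low value came from a single library of KO1, and the groups overlapped. The means were 0.947 ± 0.128 FPKM in KO and 1.06 ± 0.117 FPKM in WT (SD, n = 2 each), with a log2 fold change of -0.08 (SE 0.10, 95% interval -0.33 to 0.16, limma adjusted p = 0.726). With the first library of KO1 left out, an alternative chosen after seeing the data, the log2 fold change was -0.03, and after quantile normalization the sign turned, at 0.016.

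Neurod1 (ENSMUSG00000034701, chromosome 2, 79452521 to 79456751, minus strand) is a basic helix-loop-helix factor needed for the survival and maturation of adult-born neurons, and granule neurons keep expressing it. It had 7.98 and 7.50 FPKM in the libraries of KO1 and 9.12 and 9.14 FPKM in those of KO2, against 8.04 and 6.76 FPKM in those of WT1 and 7.15 and 7.28 FPKM in those of WT2. Both KO animals were above both WT animals, with KO2 furthest apart and the first library of WT1 above both libraries of KO1. That animal also held the only pair of technical replicates, of 36 pairs over the 9 members, whose deposited limits did not overlap. The means were 8.43 ± 0.982 FPKM in KO and 7.31 ± 0.134 FPKM in WT (SD, n = 2 each), 15.4% higher in KO. The log2 fold change was 0.18 (SE 0.09, 95% interval -0.04 to 0.40, limma adjusted p = 0.395), and it was 0.07 without KO2 and 0.29 without KO1. The annotated span overlaps those of Cerkl and Gm26755, 1 of them on the same strand. Whole spans were compared and not exons, so whether reads are shared with those genes was not tested.

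Sox4 and Sox11 are closely related SoxC transcription factors that switch on neuronal genes in newborn neurons. Sox4 (ENSMUSG00000076431, chromosome 13, 28948919 to 28953713, minus strand) stood at 4.99 and 4.93 FPKM in KO1 and 4.31 and 4.24 FPKM in KO2, against 4.59 and 4.23 FPKM in WT1 and 4.38 and 4.17 FPKM in WT2. KO1 was the high animal, and KO2 lay within the WT range. Its log2 fold change was 0.07 (SE 0.08, 95% interval -0.15 to 0.29, limma adjusted p = 0.736), and without KO1 it was -0.018. Sox11 (ENSMUSG00000063632, chromosome 12, 27334264 to 27342574, minus strand) stood at 1.96 and 2.06 FPKM in KO1 and 2.21 and 2.26 FPKM in KO2, against 1.89 and 2.09 FPKM in WT1 and 2.06 and 2.02 FPKM in WT2. Here KO2 was the high animal and KO1 lay within the WT range, so the SoxC pair did not share its high animal. The log2 fold change of Sox11 was 0.05 (SE 0.08, 95% interval -0.16 to 0.25, limma adjusted p = 0.816), and without KO2 it was -0.0043.

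Igfbpl1 (ENSMUSG00000035551, chromosome 4, 45809468 to 45826923, minus strand), an insulin-like growth factor binding protein relative found in early neuroblasts, varied most between animals. It had 2.64 and 2.65 FPKM in the libraries of KO1 and 3.78 and 3.80 FPKM in those of KO2, against 4.84 and 5.25 FPKM in those of WT1 and 2.98 and 2.93 FPKM in those of WT2. The technical libraries of each animal were close, and the deposited limits of WT1 did not overlap those of WT2. The difference between the WT animals exceeded the difference between the group means of 3.22 ± 0.807 FPKM in KO and 4.0 ± 1.48 FPKM in WT (SD, n = 2 each). The highest animal was 1.91 times the lowest, a wider range on the log2 scale than 95.9% of tested genes had. The log2 fold change was -0.23 (SE 0.24, 95% interval -0.84 to 0.39, limma adjusted p = 0.697), and without WT1 it was 0.080. The interval therefore allows a difference of this size in either direction.

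Draxin (ENSMUSG00000029005, chromosome 4, 148098437 to 148130698, minus strand), which encodes a secreted axon guidance protein, was at 0.278 and 0.307 FPKM in KO1 and 0.399 and 0.397 FPKM in KO2, against 0.316 and 0.374 FPKM in WT1 and 0.353 and 0.235 FPKM in WT2. KO2 was the highest animal and KO1 the lowest, so the WT animals lay between them. With no minimum level the log2 fold change was 0.03 (95% interval -0.14 to 0.20, limma adjusted p = 0.885). The annotated spans of Draxin (with Mad2l2), Eomes, Sox4 and Mki67 each overlap 1 gene on the other strand, and no strand setting is given in the sources used here.

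Dcx (ENSMUSG00000031285, chromosome X, 143855842 to 143933311, minus strand) encodes doublecortin, the microtubule-binding protein used as the standard marker of migrating neuroblasts and immature neurons. It had 2.87 and 2.65 FPKM in KO1 and 2.68 and 2.69 FPKM in KO2, against 2.62 and 2.70 FPKM in WT1 and 2.68 and 2.57 FPKM in WT2. The animal means were in a narrow order, with both KO animals above both WT animals, but the libraries overlapped and KO2 exceeded WT1 by less than the gap between technical replicates of WT1. Means were 2.72 ± 0.0546 FPKM in KO and 2.65 ± 0.0257 FPKM in WT (SD, n = 2 each), 2.92% higher in KO. The log2 fold change was 0.03 (SE 0.07, 95% interval -0.15 to 0.21, limma adjusted p = 0.875). It was 0.13 after quantile normalization and 0.0088 without the first library of KO1. Only 4.35% of tested genes had a smaller range over the 4 animals on the log2 scale. The 5 genes of at least 5 FPKM, of 9738, whose centred log2 profile over the 4 animals was nearest to that of Dcx were Wdr70, Noct, Pdzd8, Grm5 and Plekha3, with a mean absolute difference of 0.0025 to 0.0030. No member was close by this measure: Sox11, the nearest of them at 0.0433, ranked 3828 of the 9738 genes, and Igfbpl1, at 0.255, ranked 9512. Dcx spanned only 0.052 on this scale, so the distance mostly reflects how much the other gene varied. It therefore cannot show whether a member follows Dcx. Most members also lay below the 5 FPKM asked of the ranked genes.

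**Figure D2:**
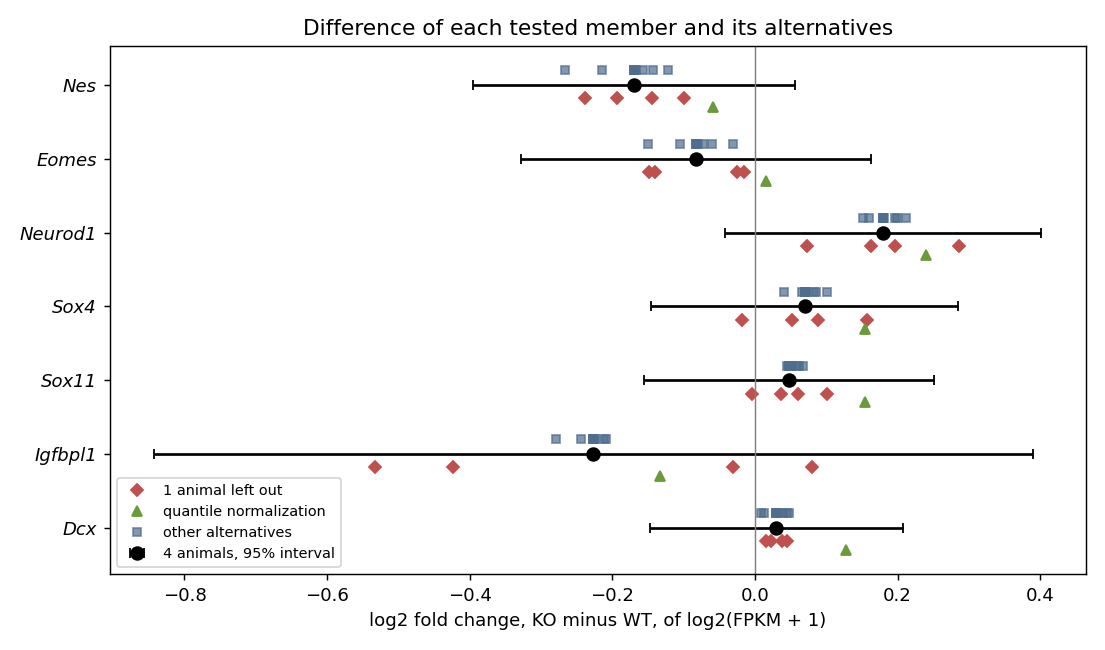
Log2 fold change (KO minus WT, of log2(FPKM + 1)) of the 7 tested members. Black points and bars are the estimates from 4 animals with their 95% intervals, red diamonds leave out 1 animal, green triangles follow quantile normalization and blue squares are the other alternatives. Every interval includes 0, and the interval of Igfbpl1 (-0.84 to 0.39) is the widest.

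The members were also set against mature granule cells of the same animal. The mean log2 level of 16 granule cell markers was 3.62 in KO and 3.63 in WT. Relative to it, the difference between the groups was 0.18 for Neurod1, 0.07 for Sox4, 0.05 for Sox11, 0.03 for Dcx, -0.08 for Eomes, -0.17 for Nes and -0.22 for Igfbpl1. Because the granule cell level differed by only -0.0021 between the groups, this scaling could hardly move the group differences. For Dcx, the KO animals were no longer both above the WT animals, at -1.67 and -1.79 in KO against -1.85 and -1.67 in WT.

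Other genes of the same stages were taken from lists by role. In the main limma fit, the one used for the members, 0 of their tested genes passed the threshold. Under alternatives given below Bmp6, Cdkn1c and Cd24a passed, Bmp6 and Cdkn1c also with all 4 animals kept. Of 20 radial glia-like stem cell genes, 19 were tested, 13 of them lower in KO, with a median log2 fold change of -0.10. The median was -0.016 after quantile normalization, where that of all genes was 0.025, and -0.026 without WT1. Both KO animals were below both WT animals in 7 of the 19 and above in 1, against 30.7% and 18.4% of all tested genes. The smallest p in this list belonged to Vim, the intermediate filament vimentin, at 21.6 and 25.5 FPKM in KO against 35.2 and 31.9 FPKM in WT (log2 fold change -0.50, limma adjusted p = 0.128). Next were Sox9, a glial fate factor (-0.26), and the Notch pathway genes Notch2 (-0.38) and Hes1 (-0.36), with limma adjusted p = 0.179, 0.197 and 0.254. Astrocytes and, for Vim and Notch2, vessels express these genes as well. Of 11 astrocyte markers, both KO animals were above both WT animals in 3 (Slc1a2, Slc1a3 and Aldoc) and below in 2 (Gja1 and Sox9), and 6 overlapped. Choroid plexus markers were lower in the same animals, and their part in this list was not tested.

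Of 29 cell cycle genes, 19 reached the minimum level, 9 of them higher and 10 lower in KO. Their median log2 fold change was -0.03. It turned to 0.056 after quantile normalization, where the median of all genes moved from -0.02 to 0.025. The groups did not overlap in 8, with 4 higher and 4 lower, against 18.4% and 30.7% of all tested genes. Top2a, the topoisomerase of dividing cells, averaged 0.513 ± 0.0247 FPKM in KO and 0.596 ± 0.0901 FPKM in WT (SD, n = 2 each). The smallest p was that of Tyms, thymidylate synthase, at 1.31 and 1.33 FPKM in KO against 1.03 and 1.03 FPKM in WT (log2 fold change 0.19, limma adjusted p = 0.329). Pcna, a replication clamp also used in repair, was at 23.0 and 23.0 FPKM in KO against 23.7 and 23.8 FPKM in WT.

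Intermediate progenitor genes had no common direction. Of 12 tested, 7 were higher and 5 lower in KO, with a median log2 fold change of 0.05. Both KO animals were above both WT animals in 6 of the 12 and below in 4, against 18.4% and 30.7% of all tested genes. Btg2, an antiproliferative gene that neuronal activity also induces, was at 10.7 and 10.04 FPKM in KO against 7.65 and 7.09 FPKM in WT (log2 fold change 0.44, SE 0.07, limma adjusted p = 0.1003). Cdkn1c, a cyclin-dependent kinase inhibitor that promotes exit from the cell cycle, was at 2.22 and 3.69 FPKM in KO against 8.18 and 11.4 FPKM in WT (log2 fold change -1.46, SE 0.23, limma adjusted p = 0.107). The median of the choroid plexus markers was -2.34 on the log2 scale in the same animals, and their part in the Cdkn1c value was not tested. The proneural genes Neurog2 and Insm1 averaged 0.653 ± 0.0137 and 2.57 ± 0.320 FPKM in KO and 0.491 ± 0.0712 and 2.16 ± 0.00321 FPKM in WT (SD, n = 2 each), with log2 fold changes of 0.15 and 0.17 and limma adjusted p = 0.464 and 0.423. They were picked after their values were seen.

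Immature neuron genes outside the members had higher means in KO in 21 of 27, with a median log2 fold change of 0.11 against -0.02 for all genes. Both KO animals were above both WT animals in 16 of the 27, where 18.4% of all tested genes were, and below in 0. The 4 with the smallest p were the actin-binding protein gene Marcksl1 (log2 fold change 0.22), the doublecortin-like kinase gene Dclk1 (0.25), the microtubule regulator gene Stmn2 (0.17) and the lissencephaly gene Pafah1b1 (0.12), with limma adjusted p = 0.183 to 0.251. Marcksl1 was at 62.0 and 67.2 FPKM in KO against 54.1 and 56.3 FPKM in WT, and Dclk1 at 136 and 122 FPKM in KO against 107 and 110 FPKM in WT. These genes had levels far above that of Dcx, and mature pyramidal and granule neurons express most of them. All 11 CA1 and CA3 pyramidal markers had higher means in KO (median 0.11, 0 past the threshold), against 42.0% of all tested genes. Both KO animals were above both WT animals in 3 of the 11, and 8 overlapped. The part of pyramidal neurons in the immature neuron list was not tested. On the same list, the polysialyltransferase gene St8sia2 averaged 0.870 ± 0.321 FPKM in KO and 1.01 ± 0.0535 FPKM in WT, and the surface protein gene Cd24a 6.94 ± 2.89 FPKM in KO and 9.11 ± 0.188 FPKM in WT (SD, n = 2 each). Both were picked after their values were seen, and both overlapped between the groups. KO1 was the low animal in both, but the list had no common low animal. Stmn1 and Dclk1, for example, were highest in KO1, at 247 and 136 FPKM. The log2 fold change of Cd24a was -0.40 with all animals and -0.78 without KO2, a fit that rests on KO1 alone in that group. KO2 itself lay within the WT range for this gene.

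**Figure D3:**
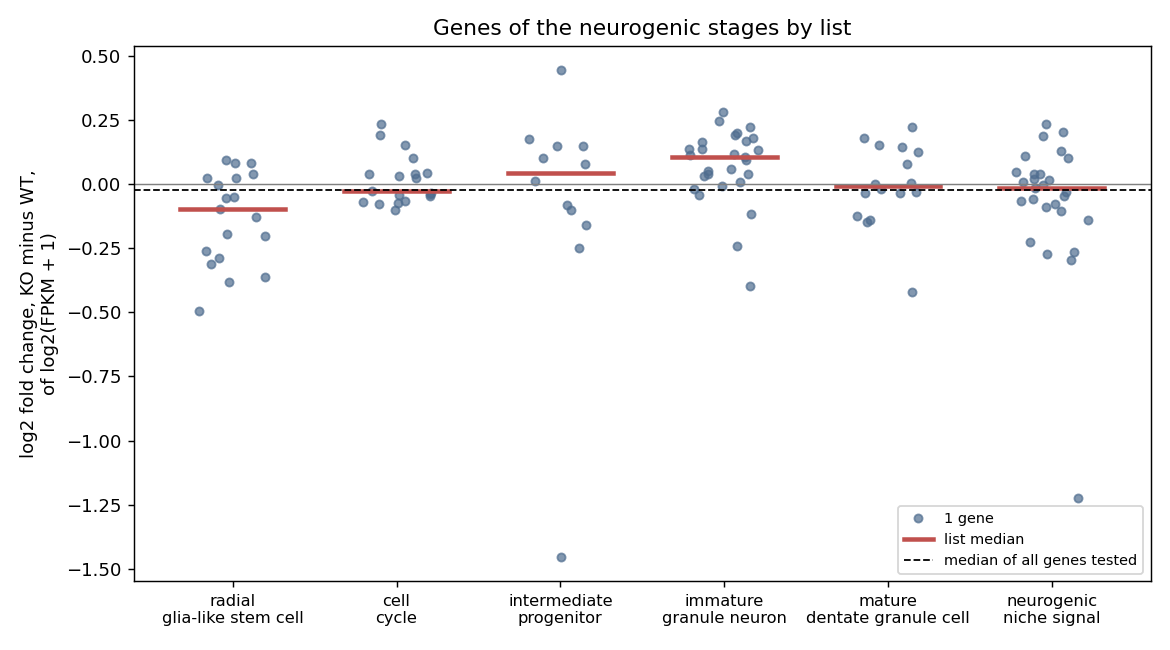
Log2 fold change (KO minus WT, of log2(FPKM + 1)) of every tested gene in 6 lists of neurogenic stages and niche signals, 1 point per gene, with the median of each list in red and the median of all 16667 tested genes dashed. List medians run from -0.10 for radial glia-like stem cell genes to 0.11 for immature granule neuron genes; the lowest points are Cdkn1c (-1.46) and Bmp6 (-1.22).

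Mature granule cell genes, the end point of the lineage, divided evenly, with 8 higher and 8 lower in KO. Their median log2 fold change of -0.01 turned to 0.0078 after median-of-ratios scaling and 0.07 after quantile normalization. In these settings the median of all genes was -0.0065 and 0.025. Calb1, a calcium buffer gained late in granule cell maturation, was at 41.4 and 44.2 FPKM in KO against 34.7 and 38.4 FPKM in WT (log2 fold change 0.22, limma adjusted p = 0.232). Plk5, a polo-like kinase gene, was at 7.39 and 8.95 FPKM in KO against 13.2 and 9.52 FPKM in WT (log2 fold change -0.42, limma adjusted p = 0.326). Prox1, the factor that specifies granule cells, averaged 16.7 ± 1.08 FPKM in KO and 15.2 ± 1.00 FPKM in WT (SD, n = 2 each), and its animals overlapped.

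Signals of the neurogenic niche were tested for 27 of 30 genes, with 12 higher and 15 lower in KO. Dkk1 was listed at 0 in every library. The list median log2 fold change of -0.01 turned to 0.063 after quantile normalization, where the median of all genes was 0.025. Bmp6, a bone morphogenetic protein of the family that holds stem cells quiescent, was at 1.86 and 1.93 FPKM in KO against 5.29 and 6.27 FPKM in WT (log2 fold change -1.22, SE 0.09, limma adjusted p = 0.0529). It passed the threshold under 5 of 13 alternatives, among them the pseudocount of 0.1, the second technical libraries, and the fit without KO2. The chemokine gene Cxcl12 was at 12.7 and 13.9 FPKM in KO against 16.7 and 16.5 FPKM in WT (-0.30, limma adjusted p = 0.134). The BMP antagonist gene Chrd was at 12.05 and 13.1 FPKM in KO against 14.8 and 15.8 FPKM in WT (-0.27, limma adjusted p = 0.184). Dab1, the adaptor of reelin signalling, was at 30.5 and 28.6 FPKM in KO against 25.9 and 25.6 FPKM in WT (0.19, limma adjusted p = 0.196). Meninges and choroid plexus also express Bmp6 and Cxcl12, and choroid plexus markers were lower in the same animals; their part was not tested.

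Other cells could hold some of the members' transcripts. Oligodendrocyte progenitors, which divide and express Sox4 and Sox11, had 7 of 11 markers with higher means in KO, against 42.0% of all tested genes. Their median was 0.03 on the log2 scale, and the groups overlapped in 7 of the 11. The sums were 136 and 133 FPKM in KO and 132 and 132 FPKM in WT. Markers of neuroblasts and interneurons derived from the ventricular zone, such as the homeobox genes Dlx2 and Dlx6, had lower means in KO in 10 of 10. Of all 16667 tested genes, 9674 had lower means. The median of these markers was -0.16, and 0 passed the threshold. Both KO animals lay below both WT animals in 5 of the 10, against 30.7% of all tested genes, and 5 overlapped. Their sums were 177 and 190 FPKM in KO and 202 and 190 FPKM in WT. Sp8, a factor of olfactory bulb neuroblasts on that list, was at 0.764 and 0.922 FPKM in KO against 1.65 and 1.01 FPKM in WT. Among striatal markers Ppp1r1b passed the threshold and was lower, at 28.0 and 28.3 FPKM in KO against 49.5 and 52.3 FPKM in WT (limma adjusted p = 0.0372). It passed under 9 of 13 alternatives, but not with no minimum or without WT1, WT2 or KO1. Of 8 neocortical markers 6 had higher means in KO (median 0.12), and astrocyte and microglia markers had medians of -0.02 and 0.11. The part of these cells in the members' values was not tested.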

How the data were processed

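RNA from hippocampus of 2 animals labelled KO and 2 WT animals was sequenced in 2 technical replicates each. Per the file headers, the authors deposited an FPKM for every gene, its confidence limits and a status. Tools named in the submitters' processing notes are Bowtie (version 1) and HISAT, with mm10. Which program computed the FPKM, and how libraries were scaled, is not given in the sources used here. Fragment numbers were not recovered: the limits implied whole fragments, within 0.05, for 26.2% to 28.3% of low genes, so depth per library is unknown. Libraries had 26482 to 27871 genes above 0.

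The 12 values whose status was not OK were set to missing, the 53 rows repeating a gene were summed, and technical replicates were averaged per animal. Genes reaching 0.5 FPKM in 2 animals were tested as log2(FPKM + 1), KO minus WT, with limma 3.58.1 (trended variance) in R 4.3.3 and Benjamini-Hochberg adjustment over all 16667 genes at 0.05. The added 1 understates fold changes of low genes. The procedure was tested on simulated data, with changes larger than those of the members and placed in genes more abundant than most of them. That test therefore does not show what could be detected in the members. Alternatives were other scalings, minimums and pseudocount, single technical libraries, a block for animal number, omission of each animal and levels relative to granule cell markers. Positions come from the deposited tables, counted from 1, and strands and overlaps from GENCODE M21.

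Members, lists and the minimum were chosen with earlier results of these data known. Named genes were the members, Ptk2b, the 4 of each list with the smallest p (not all printed) and the 5 nearest to Dcx. Of the 28 immature neuron names 27 were found, and of the 12 pyramidal names 11. Top2a, Prox1, Dkk1 and Slc1a3 were named after their values were seen.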

Additional observations from a re-analysis of the deposited data

How the results depend on the processing

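Over 91 refits of the 7 tested members, 0 gave an adjusted p under 0.05 (smallest 0.288), and the direction turned in 4: Eomes at 0.016 after quantile normalization, Sox11 at -0.0043 without KO2, Sox4 at -0.018 without KO1 and Igfbpl1 at 0.080 without WT1. The cause was not tested. Fits with 1 animal left out take the spread from the group that still has 2, and there the log2 fold change ran from -0.53 to 0.080 for Igfbpl1, -0.018 to 0.158 for Sox4 and -0.0043 to 0.10 for Sox11. The number of non-overlapping members was 0 with the first technical libraries alone and 4 to 6 with 1 animal left out, where a lone animal overlaps less easily; over all genes the shares were 46.9% and 71.9% to 78.8%. The median log2 fold change of the members was 0.13 after quantile normalization, against 0.03 for all genes there.

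Genes past the threshold over the whole table numbered 14 with a pseudocount of 0.1, 0 with no minimum (3741 unadjusted), 19 and 35 with the first or second technical libraries, 20 without the first library of KO1 (chosen after seeing the data) and 0 to 128 with 1 animal left out. With the animal number as a block there were 184, with 0 members among them and with Cdkn1c of the intermediate progenitor list, Bmp6 of the niche list and 11 choroid plexus markers. The numbers are not known to pair the animals: the deviations of same-numbered animals from their group means correlated at 0.107 over genes.

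The list medians moved by more than the spread between animals in several settings. After quantile normalization they were -0.016 for radial glia-like, 0.056 for cell cycle, 0.085 for intermediate progenitor and 0.063 for niche genes. The median of all genes moved as well, from -0.02 to 0.025. A minimum of 1 FPKM gave 0.027 for cell cycle and -0.034 for intermediate progenitor genes, and the second technical libraries -0.052 for niche genes. With 1 animal left out the medians ran from -0.14 to -0.026 for radial glia-like, -0.029 to 0.040 for cell cycle, 0.010 to 0.075 for intermediate progenitor, -0.055 to 0.021 for niche, 0.08 to 0.10 for immature neuron, and -0.09 to 0.09 for mature granule cell genes. Among the stage lists, the genes called under any alternative were Bmp6 (5 settings), Cdkn1c (the block) and Cd24a (without KO2). The deposited limits were widest for Mki67 and Draxin as a share of their values; depth per library is unknown.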
